A study of Mus musculus with 18 samples.

Results

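Sterol synthesis genes were examined across 18 Affymetrix MG-430 PM arrays of mouse liver RNA, as a set of 34 genes chosen by name: 21 enzymes on or beside the route from acetyl-CoA or acetoacetate to cholesterol, 6 genes of the transcription factor SREBP2 and its regulators, 6 genes of sterol transport and binding, and the retinal reductase gene Rdh11. Beside that route lie Acat1, a mitochondrial thiolase, and Ggps1, which leads to protein prenylation, and both are counted among the enzymes. Of the 34, 33 were measured, among 17097 genes in all, with 20 enzymes among them, and Pmvk was not analysed here. Each gene was read from the probe set with its highest mean. Values are log2 levels, on which a difference of 1 is a doubling.

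The study compared livers of mice whose transintestinal cholesterol excretion, the direct passage of cholesterol into the gut lumen, had been stimulated chronically or acutely. In the chronic model, C57BL/6 mice carrying NPC1L1 as a liver transgene (n = 5) were set against C57BL/6 wild-type mice (n = 5). In the acute model, C57BL/6N mice that received an antisense oligonucleotide, or ASO, directed at ACAT2 (n = 4) were set against C57BL/6N mice given a non-targeting control ASO (n = 4). All mice were females of 6 to 8 weeks. NPC1L1 is a cholesterol transporter of the intestinal brush border, and ACAT2 is an enzyme that esterifies cholesterol in hepatocytes and enterocytes. For the transgene the promoter and species, and for the ASO the dose and duration, are not stated in the labels. Samples within a group carry numbers in the labels but are not said to be separate animals, so a p-value reflects only how far these samples differ, and part of that may be technical.

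Cholesterol is built in the endoplasmic reticulum and cytosol from acetyl-CoA through mevalonate, isoprenoid diphosphates, squalene and lanosterol, and the liver is a major site of this synthesis. SREBP2, made from Srebf2, switches the pathway on. When membrane sterol is low, SCAP escorts SREBP2 to the Golgi, where the proteases of Mbtps1 and Mbtps2 release its active part. When sterol is high, the INSIG proteins hold SCAP and SREBP2 back in the endoplasmic reticulum.

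The mouse Npc1l1 probe set lay near the low end of the scale, at 3.82 ± 0.22 in wild-type and 3.68 ± 0.07 in transgenic liver (SD, n = 5, limma adjusted p = 0.604), and as the species of the transgene is not stated it does not check the labels. Knockdown by the ASO was not checked, because its target transcript was not analysed here. Hepatocyte markers averaged between 11.8 and 12.3 on every array, where the median of all gene means was 5.29. Wild type 2, control ASO 4 and ACAT2 ASO 1 stood apart, with 871, 691 and 561 genes more than 0.5 from their group's median, against 68 to 241 on the other arrays. These 3 arrays had the highest macrophage marker levels of their groups. In bulk liver, fewer cells of a type and less RNA per cell cannot be told apart.

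No member passed the test in either model. In transgenic against wild-type liver 0 of 33 members were called at a limma Benjamini-Hochberg adjusted p under 0.05, where 0.228% of all genes were called. At an unadjusted p under 0.05, 5 members were lower (Sqle, Lss, Fdft1, Idi1 and Stard4) and 0 higher, against 4.52% and 6.36% of all genes. After ACAT2 ASO 0 of 33 members were called, against 0.597% of all genes. At an unadjusted p under 0.05, 2 members were lower there (Tmem97 and Sc5d) and 1 higher (Mbtps1), against 7.63% and 5.68% of all genes. The changes are therefore given as values with 95% intervals, and a p that misses the threshold does not show that levels were equal.

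The sign of the change was below 0 for most members in each model. In transgenic liver 24 of 33 members and 17 of 20 enzymes lay below wild type, against 47.4% of all genes, with a median change of -0.12 over the members and -0.14 over the enzymes, and 0.0058 over all genes. After ACAT2 ASO 23 of 33 members and 15 of 20 enzymes lay below control ASO, against 50.3% of all genes, with medians of -0.07 and -0.07, and -0.00056 over all genes. Both comparisons were below 0 for 20 members, against 21.1% of all genes. Both were above 0 for 6 members, and 7 members had opposite signs. Signs of members are not separate trials, because a single array can be high for many members at once. Wild type 1 was the highest array of its model for 15 of 20 enzymes, and control ASO 1 for 11 of 20.

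**Figure D1:**
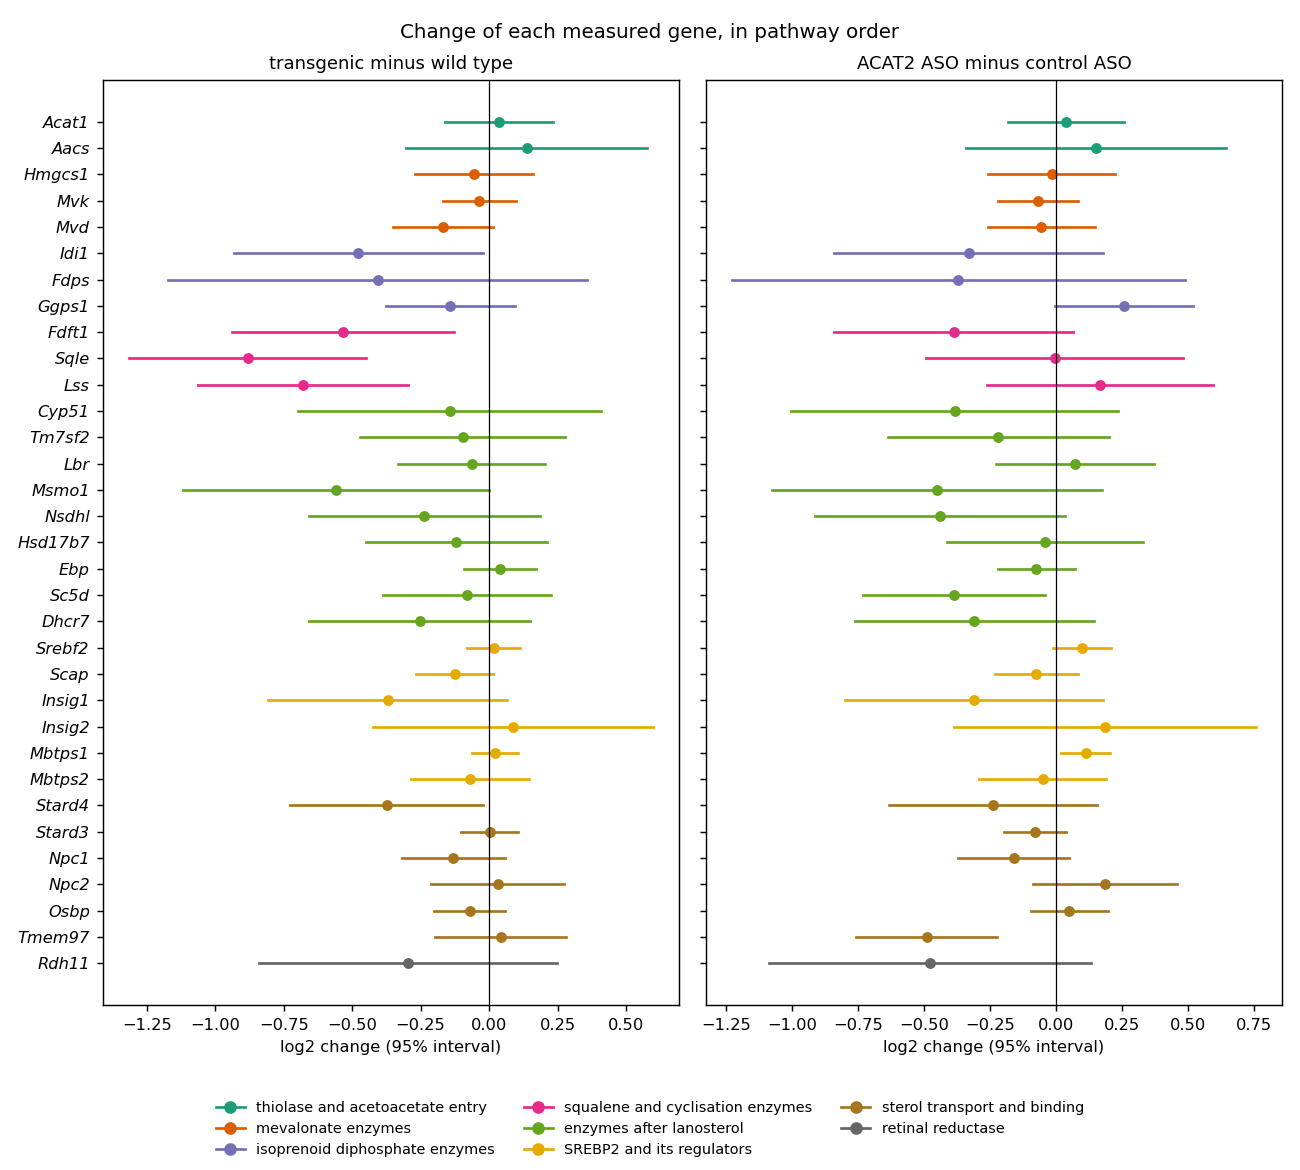
Log2 change of each of the 33 measured genes in pathway order, transgenic minus wild type on the left and ACAT2 ASO minus control ASO on the right, as a point with its 95% interval (limma), coloured by class. Sqle has the lowest point on the left at -0.88, Tmem97 the lowest on the right at -0.49, and both intervals lie below 0.

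SREBP2 binds short promoter elements with the help of the factors NF-Y and Sp1, so the promoters of the members were searched for 3 motifs on both strands: the sterol regulatory element (SRE) TCACNCCAC, the NF-Y box CCAAT and the Sp1 box GGGCGG. The windows were RefSeq promoters of assembly GRCm38.p6, from 250 bases before to 50 bases after the gene start, and 27 of the 33 members had one. Acat1, Fdps, Fdft1, Sqle, Stard4 and Npc1 had none available, so the motif counts and printed sequences do not cover them. An NF-Y box was found in 23 of 27 members, against 42.3% of the 13514 genes on the array with a promoter (37.4% of all 32851 promoters in the table). A Sp1 box was found in 23 of 27, against 57.4% of those genes (35.7% of all promoters). The SRE was found in 2 of 27, Hmgcs1 and Stard3, against 1.49% of those genes (1.24% of all promoters). No match overlapped another motif. A match is a description of the letters and not a mapped binding site, and the SRE was searched in this strict form only.

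The 200 bases before the start of 6 members are printed 5′ to 3′ on the gene's strand, with SRE and NF-Y boxes (CCAAT or its reverse complement ATTGG) in capitals. Hmgcs1 is shown because it holds an SRE and NF-Y boxes together. Idi1, Lss and Msmo1 are enzymes whose values are described for transgenic liver, and Tmem97 and Mbtps1 are the members with the smallest p after ACAT2 ASO. They lie at chr13:119690151-119690350 (+) for Hmgcs1, chr13:8885406-8885605 (+) for Idi1, chr10:76531405-76531604 (+) for Lss, chr8:64733579-64733778 (-) for Msmo1, chr11:78550736-78550935 (-) for Tmem97 and chr8:119558762-119558961 (-) for Mbtps1.
Hmgcs1: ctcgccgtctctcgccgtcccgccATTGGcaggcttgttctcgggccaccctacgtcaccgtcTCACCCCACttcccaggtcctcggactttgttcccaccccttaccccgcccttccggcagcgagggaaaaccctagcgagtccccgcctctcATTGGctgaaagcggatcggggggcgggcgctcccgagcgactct
Idi1: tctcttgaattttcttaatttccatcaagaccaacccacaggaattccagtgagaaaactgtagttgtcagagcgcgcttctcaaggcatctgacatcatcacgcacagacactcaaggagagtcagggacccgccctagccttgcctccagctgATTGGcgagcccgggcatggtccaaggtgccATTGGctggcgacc
Lss: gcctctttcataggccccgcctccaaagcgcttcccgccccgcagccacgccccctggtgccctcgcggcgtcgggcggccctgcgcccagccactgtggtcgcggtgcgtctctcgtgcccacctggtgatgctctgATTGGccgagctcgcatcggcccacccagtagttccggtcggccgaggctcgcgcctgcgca
Msmo1: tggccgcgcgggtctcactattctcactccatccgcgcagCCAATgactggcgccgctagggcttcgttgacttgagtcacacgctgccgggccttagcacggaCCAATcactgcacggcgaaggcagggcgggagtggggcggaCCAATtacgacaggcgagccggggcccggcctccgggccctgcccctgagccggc
Tmem97: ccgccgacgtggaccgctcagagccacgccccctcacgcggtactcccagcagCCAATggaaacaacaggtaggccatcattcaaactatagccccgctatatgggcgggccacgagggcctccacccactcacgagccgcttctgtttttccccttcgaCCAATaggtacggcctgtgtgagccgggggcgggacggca
Mbtps1: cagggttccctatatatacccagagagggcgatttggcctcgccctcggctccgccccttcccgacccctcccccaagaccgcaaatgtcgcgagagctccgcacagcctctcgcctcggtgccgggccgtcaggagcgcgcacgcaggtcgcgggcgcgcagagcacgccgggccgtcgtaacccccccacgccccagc
The Hmgcs1 stretch holds the SRE TCACCCCAC from position -137, with NF-Y boxes from -176 and -45, counted back from the gene start. Msmo1 has NF-Y boxes from -160, -96 and -55, Tmem97 from -147 and -40, Idi1 from -45 and -14, and Lss from -62. Mbtps1, a protease gene, has none in this window and a Sp1 box from -149.

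In transgenic liver the 3 enzymes around squalene were among the 4 members with the largest changes, with Msmo1, described with its class, as the other. Sqle, squalene epoxidase, which makes the first oxygenated intermediate of the sterol branch, read 7.02, 6.25, 5.81, 5.87 and 5.62 on wild-type arrays 1 to 5 and 5.32, 4.93, 4.85, 5.42 and 5.65 on transgenic arrays 1 to 5. Wild type 1 was the highest, and the groups overlapped only in that wild type 5 lay just below transgenic 5. The mean was 6.12 ± 0.56 in wild-type and 5.23 ± 0.34 in transgenic liver (SD, n = 5), a change of -0.88 ± 0.21 (SE, limma adjusted p = 0.088, 95% interval -1.32 to -0.45), or 1.84-fold lower.

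Lss, lanosterol synthase, which folds squalene epoxide into the first sterol, read 6.43, 5.81, 5.80, 5.38 and 5.11 on wild-type arrays 1 to 5 and 4.91, 5.37, 4.98, 4.87 and 5.01 on transgenic arrays 1 to 5. Wild type 5, the lowest of its group, lay below transgenic 2, the highest of the other, and the remaining arrays were separated. The change was -0.68 ± 0.18 (SE, limma adjusted p = 0.138, 95% interval -1.06 to -0.30), or 1.6-fold lower. Fdft1, squalene synthase, which commits farnesyl diphosphate to sterols, read 9.18, 8.73, 8.73, 8.92 and 8.66 on wild-type arrays and 8.07, 8.45, 8.46, 8.10 and 8.48 on transgenic arrays. Its groups did not overlap, all transgenic arrays lying lower. It differed by -0.53 ± 0.19 (SE, limma adjusted p = 0.306, 95% interval -0.94 to -0.13). Groups did not overlap, with the transgenic arrays lower, for 2 members, Fdft1 and Stard4, against 0.801% of all genes, and for 0 members with them higher, against 1.42%.

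The squalene enzymes kept their sign when any array was left out, and their size depended on wild type 1 and wild type 5. Without wild type 1, Sqle differed by -0.66 and Lss by -0.50 (limma adjusted p = 0.189 and 0.286). Without wild type 5, Sqle differed by -1.01 and Lss by -0.83 (limma adjusted p = 0.0487 and 0.0401), the only settings run in which members were called in this comparison. Fdft1 ranged from -0.58 without wild type 5 to -0.45 without wild type 1.

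**Figure D2:**
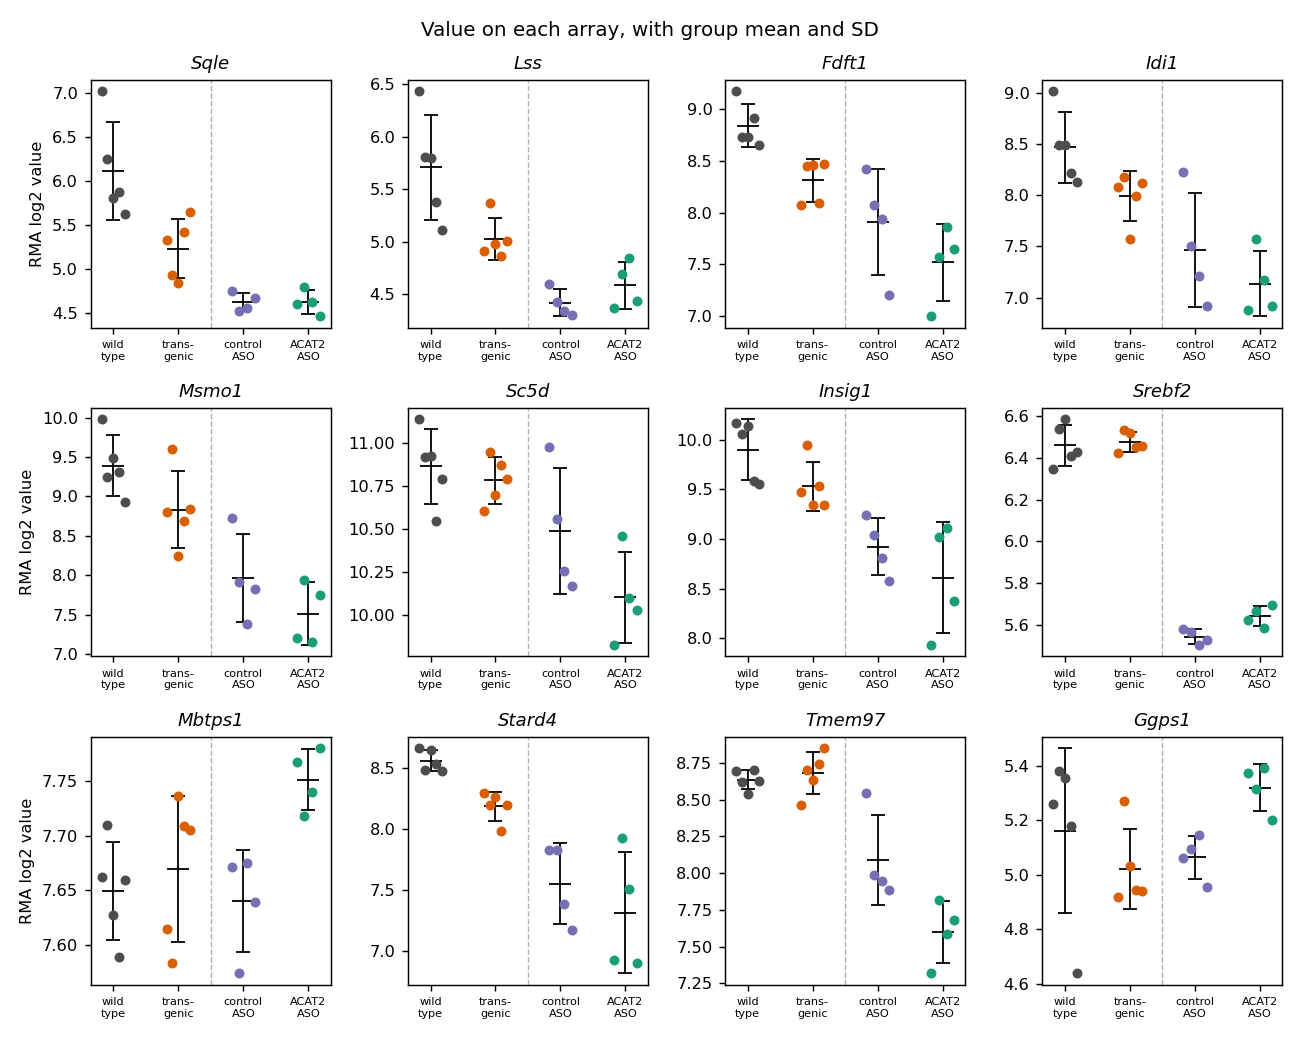
RMA log2 value on each array for 12 genes, as points by group (wild type and transgenic, n = 5 each, control ASO and ACAT2 ASO, n = 4 each), with the group mean and SD as a bar, replicates in order from left to right. Fdft1 and Stard4 are separate between wild-type and transgenic arrays, and Tmem97, Ggps1, Srebf2 and Mbtps1 between the ASO groups, while levels are to be read only within a model because the models differ in their array medians.

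Upstream of squalene the values were smaller or more spread. Idi1, isopentenyl diphosphate isomerase, read 9.02, 8.49, 8.49, 8.22 and 8.13 on wild-type arrays and 8.08, 8.18, 7.57, 8.00 and 8.12 on transgenic arrays. Wild type 5 lay below transgenic 2, the other wild-type arrays lay above all transgenic ones, and transgenic 3 was the lowest. The change was -0.48 ± 0.22 (SE, limma adjusted p = 0.432), and a second Idi1 probe set differed by -0.76. Fdps, farnesyl diphosphate synthase, spread from 7.98 to 10.12 in wild-type and from 7.67 to 8.84 in transgenic liver, and its change of -0.41 ± 0.36 (SE) was close to its error and ran from -0.63 without wild type 5 to -0.10 without wild type 1. Ggps1, which makes geranylgeranyl diphosphate for protein prenylation, read 5.26, 5.38, 5.36, 5.18 and 4.64 on wild-type and 4.92, 5.27, 5.03, 4.94 and 4.94 on transgenic arrays. Wild type 5 lay far below the rest of its group, and the change was -0.14 ± 0.11 (SE, limma adjusted p = 0.71), or -0.27 without that array.

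The 5 mevalonate and entry enzymes measured differed by between -0.17 and 0.14 in transgenic liver. Mvd, which decarboxylates mevalonate diphosphate, read 5.57, 5.45, 5.21, 5.10 and 5.03 on wild-type and 5.17, 5.15, 5.03, 4.97 and 5.19 on transgenic arrays. Wild type 1, 2 and 3 lay above all transgenic arrays and the other 2 among them (change -0.17 ± 0.09, SE, limma adjusted p = 0.502). Mvk, mevalonate kinase, read 6.41, 6.19, 6.25, 6.09 and 6.34 and 6.24, 6.28, 6.14, 6.26 and 6.19 in the same order, with overlapping groups and a change of -0.04 ± 0.06 (SE).
Hmgcs1, HMG-CoA synthase, had 1 probe set, which read from 3.32 to 3.89 on these arrays, below the 4.74 under which 40% of gene means lay, so its change of -0.06 ± 0.10 (SE) is poorly measured. Aacs, acetoacetyl-CoA synthetase, which brings ketone bodies into sterols, read 8.05, 7.09, 7.31, 7.99 and 7.86 on wild-type and 8.09, 8.13, 7.37, 8.09 and 7.32 on transgenic arrays. Each group held arrays from 7.09 to 7.37 and arrays from 7.86 to 8.13, and the change was 0.14 ± 0.21 (SE, limma adjusted p = 0.883). Acat1, the mitochondrial acetoacetyl-CoA thiolase and not a sterol esterifying enzyme, read 11.65, 11.63, 11.59, 11.77 and 11.97 and 12.02, 11.74, 11.82, 11.59 and 11.61, with overlapping groups (change 0.04 ± 0.09, SE).

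Of the 9 enzymes after lanosterol 8 lay below wild type in transgenic liver, with a median of -0.12. Without wild type 1 the median was -0.01, with 5 of 9 below 0. Msmo1, the sterol C4-methyl oxidase, had the largest change, reading 9.98, 9.25, 9.49, 9.31 and 8.93 on wild-type and 8.80, 9.60, 8.24, 8.68 and 8.84 on transgenic arrays. Transgenic 2 lay among the wild-type arrays and the other 4 below all of them, with a change of -0.56 ± 0.27 (SE, limma adjusted p = 0.459). Dhcr7, the last reductase of one branch, read 8.59, 8.03, 7.73, 8.00 and 7.61 and 7.61, 8.14, 7.29, 7.94 and 7.71, and Nsdhl, the C4 decarboxylating dehydrogenase, read 8.89, 8.33, 8.01, 8.22 and 7.65 and 7.91, 8.04, 7.77, 8.06 and 8.13. In both genes wild type 1 was highest and the groups otherwise overlapped (changes -0.25 ± 0.19 and -0.24 ± 0.20, SE). Sc5d, the sterol C5 desaturase, read 11.14, 10.92, 10.92, 10.54 and 10.79 and 10.61, 10.95, 10.70, 10.87 and 10.79, with wild type 1 highest and wild type 4 lowest of all 10 arrays (change -0.08 ± 0.15, SE). The other Sc5d probe sets, both dimmer, differed by -0.36 and -0.25 in transgenic liver, so the probe sets disagree in size. The other 5 of the class, Cyp51, Tm7sf2, Lbr, Hsd17b7 and Ebp, differed by between -0.14 and 0.04. Cyp51, lanosterol demethylase, differed by -0.14 in the probe set used and by -0.70 in a dimmer one (means of 5.99 and 4.18), so its probe sets disagree in size.

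The 6 genes of SREBP2 and its regulators had a median change of -0.03 in transgenic liver, 3 above 0 and 3 below. Srebf2 read 6.35, 6.54, 6.58, 6.41 and 6.43 on wild-type and 6.42, 6.53, 6.52, 6.45 and 6.45 on transgenic arrays. The groups overlapped throughout, and the change was 0.02 ± 0.05 (SE, 95% interval -0.08 to 0.11). Scap, the sterol-sensing escort, read 8.98, 8.76, 8.85, 8.75 and 8.89 and 8.66, 8.65, 8.77, 8.79 and 8.73, with 3 of 5 wild-type arrays above all transgenic ones (change -0.13 ± 0.07, SE, limma adjusted p = 0.524). Insig1, itself an SREBP target that closes the feedback loop, read 10.16, 10.05, 10.14, 9.59 and 9.56 and 9.47, 9.95, 9.35, 9.54 and 9.34. Wild type 1, 2 and 3 lay above all transgenic arrays and transgenic 2 above the other 2 wild-type arrays, with a change of -0.37 ± 0.21 (SE, limma adjusted p = 0.549). Mbtps1, the site-1 protease, read 7.66, 7.71, 7.63, 7.59 and 7.66 and 7.62, 7.58, 7.74, 7.71 and 7.71, with overlapping groups and a change of 0.02 ± 0.04 (SE). Insig2, the INSIG not driven by SREBP, and Mbtps2, the site-2 protease, differed by 0.09 and -0.07.

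Among transport genes Stard4, a soluble carrier that moves cholesterol between membranes and is an SREBP2 target, read 8.66, 8.49, 8.65, 8.53 and 8.48 on wild-type and 8.30, 8.19, 8.26, 7.98 and 8.20 on transgenic arrays. The groups did not overlap, with a gap between wild type 5 at 8.48 and transgenic 1 at 8.30. The change was -0.37 ± 0.17 (SE, limma adjusted p = 0.423, 95% interval -0.73 to -0.02), and the other Stard4 probe sets differed by -0.46 and -0.62. Npc1, the lysosomal membrane exporter of cholesterol, read 9.13, 8.94, 9.43, 9.14 and 8.99 and 8.84, 9.01, 8.99, 9.12 and 9.01, with wild type 3 highest and overlapping groups (change -0.13 ± 0.09, SE, limma adjusted p = 0.647). Tmem97, an SREBP2-responsive membrane protein also known as the sigma-2 receptor, read 8.69, 8.62, 8.54, 8.70 and 8.63 and 8.47, 8.70, 8.63, 8.74 and 8.85, and the transgenic arrays spanned the wild-type range (change 0.04 ± 0.11, SE, 95% interval -0.20 to 0.28). Stard3, Npc2 and Osbp differed by between -0.07 and 0.03. Rdh11, a retinal reductase reported as an SREBP target, read 7.74, 7.33, 6.42, 6.29 and 6.27 on wild-type and 6.58, 6.40, 6.10, 6.59 and 6.90 on transgenic arrays. Wild type 1 and 2 lay above all others and the remaining 8 arrays mixed (change -0.30 ± 0.26, SE, limma adjusted p = 0.751).

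After ACAT2 ASO the member with the smallest p was Tmem97. It read 8.55, 7.99, 7.94 and 7.89 on control ASO arrays 1 to 4 and 7.32, 7.82, 7.59 and 7.68 on ACAT2 ASO arrays 1 to 4. All ACAT2 ASO arrays lay lower, the closest pair being ACAT2 ASO 2 and control ASO 4, and control ASO 1 stood above the rest of its group. The mean was 8.09 ± 0.31 after control and 7.60 ± 0.21 after ACAT2 ASO (SD, n = 4), a change of -0.49 ± 0.13 (SE, limma adjusted p = 0.0881, 95% interval -0.76 to -0.22), or 1.4-fold lower. Tmem97 had SDs of 0.07 in wild-type and 0.14 in transgenic liver. The standard error draws on these arrays too, so it understates the spread of the ASO model. Without control ASO 1 the change was -0.34, and over the arrays left out in turn the limma adjusted p ran from 0.0513 to 0.219. With array weights it was -0.45 and was called (limma adjusted p = 0.0444), in a fit that called 465 of 17097 genes in place of 102. Groups did not overlap, with the ACAT2 ASO arrays lower, for 1 member, against 4.67% of all genes, and with them higher for 3 members, Ggps1, Srebf2 and Mbtps1, against 4.39%.

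The 3 squalene enzymes did not share a direction after ACAT2 ASO. Sqle read 4.75, 4.52, 4.56 and 4.68 on control ASO arrays and 4.60, 4.79, 4.62 and 4.46 on ACAT2 ASO arrays, so that all lay between 4.46 and 4.79. The change was -0.01 ± 0.23 (SE, 95% interval -0.49 to 0.48). Lss read 4.59, 4.43, 4.34 and 4.30 and 4.37, 4.69, 4.85 and 4.43, with ACAT2 ASO 2 and 3 above all control arrays and the other 2 among them (change 0.17 ± 0.20, SE). Group means were 4.63 after control and 4.62 after ACAT2 ASO for Sqle, and 4.42 and 4.58 for Lss. All lay below the 4.74 under which 40% of gene means lay, so the changes of Sqle and Lss are poorly measured here. That level was taken over all 18 arrays, and array medians are lower in the ASO model. Fdft1 read 8.42, 8.07, 7.94 and 7.20 and 6.996, 7.57, 7.86 and 7.65. Control ASO 1, 2 and 3 lay above all ACAT2 ASO arrays, control ASO 4 lay among them, and ACAT2 ASO 1 was lowest. Fdft1 differed by -0.39 ± 0.22 (SE, limma adjusted p = 0.461), between -0.62 without control ASO 4 and -0.21 without ACAT2 ASO 1.

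Among isoprenoid enzymes Ggps1 read 5.06, 5.09, 5.15 and 4.96 on control ASO arrays and 5.37, 5.32, 5.39 and 5.20 on ACAT2 ASO arrays. All ACAT2 ASO arrays lay higher, with a change of 0.26 ± 0.12 (SE, limma adjusted p = 0.387, 95% interval -0.01 to 0.52), and other probe sets of the gene differed by 0.28 and -0.01. Idi1 read 8.22, 7.50, 7.21 and 6.92 and 6.88, 7.57, 7.17 and 6.92, with control ASO 1 well above all others (change -0.33 ± 0.24, SE). Fdps spread from 6.55 to 8.20 after control ASO and from 6.70 to 7.23 after ACAT2 ASO, and differed by -0.37 ± 0.41 (SE), or by -0.06 without control ASO 1. At the mevalonate and entry steps, Mvk read 6.32, 6.22, 6.07 and 6.21 and 5.99, 6.23, 6.11 and 6.20, and Mvd 4.85, 4.64, 4.77 and 4.64 and 4.67, 4.68, 4.69 and 4.62. Both overlapped (changes -0.07 ± 0.07 and -0.06 ± 0.10, SE). A dimmer Mvk probe set (mean of 5.08, against 6.21 for the one used) differed by -0.24 (limma adjusted p = 0.101). The Mvk probe sets therefore share a sign and disagree in size. The other Mvd probe set differed by -0.03. Acat1 read 11.76, 11.68, 11.81 and 11.52 and 11.81, 11.89, 11.54 and 11.69, and Aacs 7.80, 7.54, 7.57 and 7.29 and 7.31, 7.98, 7.83 and 7.68, with overlapping groups (changes 0.04 ± 0.10 and 0.15 ± 0.23, SE). Hmgcs1, again near the low end at 3.13 to 3.47, differed by -0.02.

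Enzymes after lanosterol had a median change of -0.31 after ACAT2 ASO, with 8 of 9 below control ASO. Without control ASO 1 the median was -0.16, with 9 of 9 below 0. Sc5d read 10.98, 10.56, 10.25 and 10.17 on control ASO arrays and 9.83, 10.46, 10.10 and 10.03 on ACAT2 ASO arrays. Control ASO 1 and 2 lay above all ACAT2 ASO arrays and the other 2 among them. The change was -0.39 ± 0.16 (SE, limma adjusted p = 0.307, 95% interval -0.73 to -0.04), and the other Sc5d probe sets differed by -0.09 and 0.06. Nsdhl read 8.14, 7.35, 7.07 and 7.47 and 6.98, 7.40, 6.95 and 6.94, with ACAT2 ASO 2 above the other 3, which lay below all control arrays (change -0.44 ± 0.22, SE, limma adjusted p = 0.412). Msmo1 read 8.73, 7.92, 7.39 and 7.82 and 7.20, 7.95, 7.16 and 7.75, and Dhcr7 read 7.19, 6.65, 6.29 and 6.57 and 6.27, 6.64, 6.21 and 6.34. In both genes control ASO 1 was highest and the groups overlapped (changes -0.45 ± 0.30 and -0.31 ± 0.21, SE). Cyp51, Tm7sf2, Lbr, Hsd17b7 and Ebp differed by between -0.38 and 0.07.

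Srebf2 read 5.58, 5.57, 5.50 and 5.53 on control ASO arrays and 5.62, 5.67, 5.58 and 5.69 on ACAT2 ASO arrays, and Mbtps1 read 7.67, 7.57, 7.67 and 7.64 and 7.77, 7.72, 7.74 and 7.78. All ACAT2 ASO arrays lay higher in both genes, by 0.10 ± 0.05 for Srebf2 and 0.11 ± 0.04 for Mbtps1 (SE, limma adjusted p = 0.430 and 0.280). Other probe sets did not share the direction in full, at -0.11 for Srebf2 and -0.10 and 0.10 for Mbtps1. Insig1 read 9.24, 9.04, 8.81 and 8.58 and 7.93, 9.02, 9.11 and 8.37, with ACAT2 ASO 1 and 4 below all control arrays and the other 2 among them (change -0.31 ± 0.23, SE). Scap read 8.43, 8.39, 8.40 and 8.57 and 8.37, 8.61, 8.25 and 8.26, with ACAT2 ASO 2 highest of all 8 arrays (change -0.07 ± 0.07, SE). Insig2 and Mbtps2 differed by 0.18 and -0.05, and the other Insig2 probe sets differed by 0.4 and 0.32. Of the transport genes, Stard4 read 7.83, 7.83, 7.39 and 7.17 and 6.93, 7.93, 7.51 and 6.90, and Npc1 read 8.84, 8.94, 8.80 and 8.81 and 8.42, 8.89, 8.72 and 8.71. The groups overlapped in both (changes -0.24 ± 0.19 and -0.16 ± 0.10, SE), and Stard3, Npc2 and Osbp differed by between -0.08 and 0.18. Rdh11 read 6.66, 6.54, 6.01 and 5.74 and 5.67, 5.83, 5.92 and 5.61, with control ASO 1, 2 and 3 above all ACAT2 ASO arrays (change -0.48 ± 0.29, SE, limma adjusted p = 0.517).

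The difference between the models' effects was tested for every gene, and 0 of 33 members were called, against 1.07% of all genes. Tmem97, at 0.04 in transgenic liver and -0.49 after ACAT2 ASO, had the smallest p (difference 0.53 ± 0.17, SE, limma adjusted p = 0.136). Lss, at -0.68 and 0.17, differed by -0.85 ± 0.27 (SE, limma adjusted p = 0.137), and Sqle, at -0.88 and -0.01, by -0.88 ± 0.31 (SE, limma adjusted p = 0.176). Both genes had group means below 4.74 in the ASO model, so these differences rest on poorly measured ASO changes. Ggps1, at -0.14 and 0.26, differed by -0.40 ± 0.17 (SE, limma adjusted p = 0.257), and by -0.53 without wild type 5, where it was called (limma adjusted p = 0.027). The strain label and the array medians differ between the models along with the intervention, and these cannot be told apart.

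The enzymes had a wide spread among the arrays of a group. The median SD of the 20 enzymes was 0.36 among wild-type, 0.19 among transgenic, 0.24 among control ASO and 0.22 among ACAT2 ASO arrays, against 0.09 to 0.11 over all genes. An SD of at least the enzymes' median was found in 4.67% of all genes in wild-type and 14.2% in transgenic liver, and in 9.72% after control and 11.1% after ACAT2 ASO. The 13 other members had medians from 0.10 to 0.18.

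Wild type 1 was the highest of the 10 arrays of its model for 15 of 20 enzymes, where it was highest for 8.05% of all genes. Control ASO 1 was the highest of the 8 arrays of its model for 11 of 20 enzymes, against 15.6% of all genes. The mean of the enzymes read 8.17, 7.75, 7.62, 7.63 and 7.44 on wild-type arrays 1 to 5 and 7.47, 7.65, 7.29, 7.50 and 7.53 on transgenic arrays. It read 7.38, 7.10, 6.95 and 6.89 on control ASO arrays and 6.81, 7.11, 6.94 and 6.89 on ACAT2 ASO arrays. In each model the highest mean was that of a control array, and the rest of the groups overlapped. Without wild type 1 the enzymes' median change in transgenic liver was -0.08, with 13 of 20 below 0, and without wild type 5 it was -0.25. Without control ASO 1 the median after ACAT2 ASO was -0.04, with 14 of 20 below 0.

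**Figure D3:**
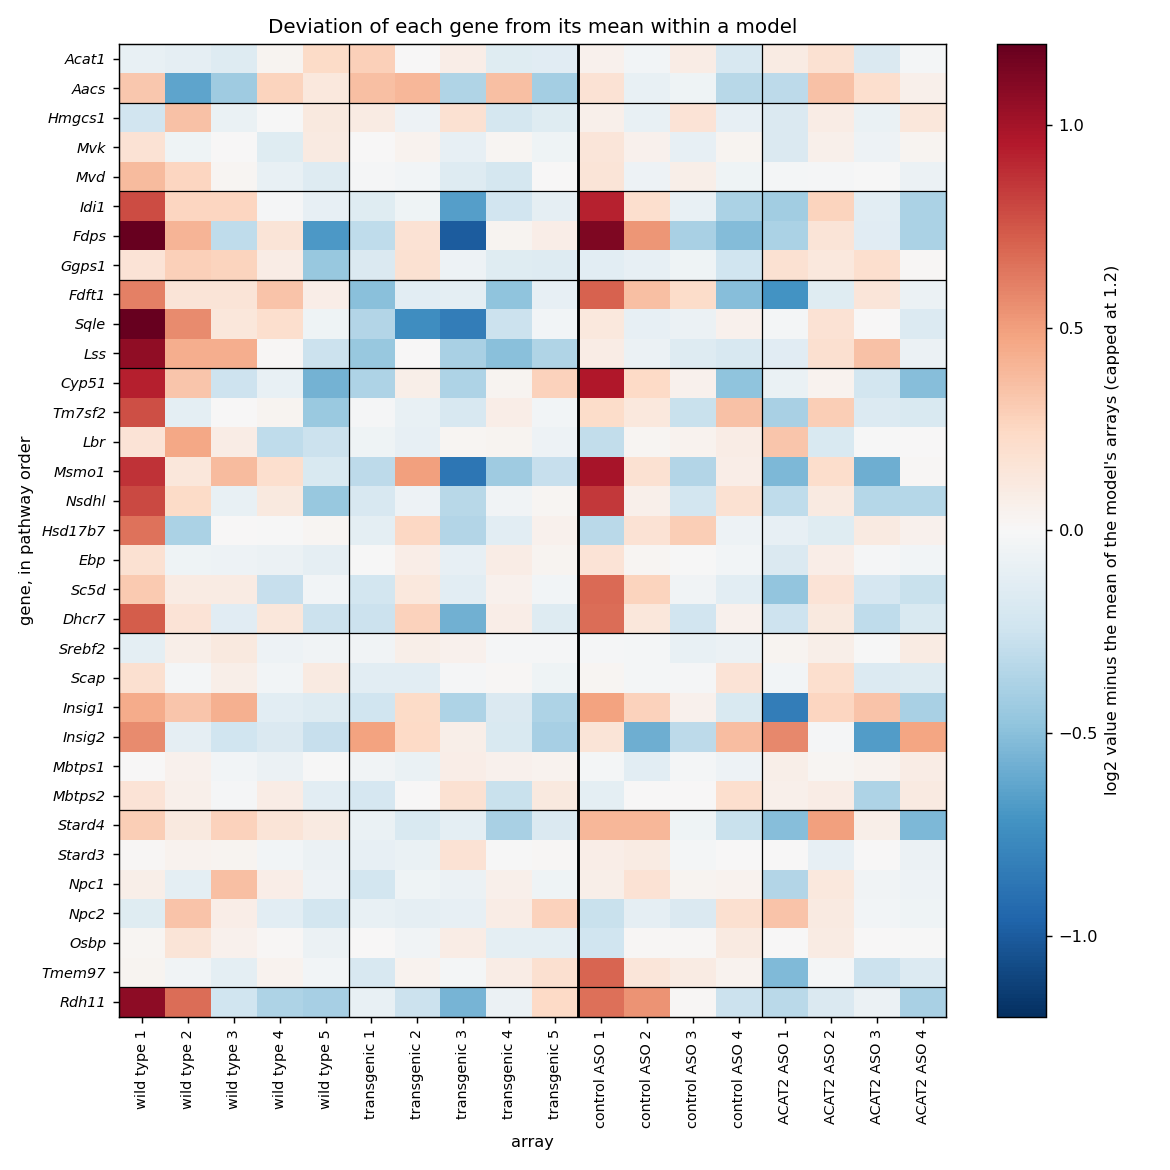
Deviation of each member (rows, in pathway order, classes separated by lines) from its mean over the arrays of its model, for each of the 18 arrays (columns), on a log2 colour scale capped at 1.2 in each direction, red above and blue below. Wild type 1 and control ASO 1 are red for most enzymes, the highest of their models for 15 and 11 of 20.

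Other lists deviated on those arrays too, and their part in the results was not tested. Genes of fatty acid synthesis, the branch driven mainly by the related factor SREBP1, deviated from their group median by a median of 0.53 on wild type 1 and 0.54 on control ASO 1, where the enzymes deviated by 0.49 and 0.18. Macrophage markers deviated by -0.49 on wild type 1 and -0.13 on control ASO 1. On wild type 2, control ASO 4 and ACAT2 ASO 1, where macrophage markers deviated by 0.76, 1.05 and 0.92, the enzymes deviated by 0.01, -0.08 and -0.14. The mean of the 10 macrophage markers ran from 7.91 to 9.66 in wild-type and 8.12 to 8.90 in transgenic liver. In transgenic liver 5 of 10 were higher, and 10 of 10 without wild type 2 (median change 0.22). The mean of these markers ran from 7.48 to 8.84 after control and 7.44 to 9.28 after ACAT2 ASO. After ACAT2 ASO 10 of 10 were higher, 6 of 10 without ACAT2 ASO 1, and 0 were called. Without the 3 arrays that stand apart, 0 members were called in each model, and the enzymes' median was -0.13 in transgenic liver and -0.05 after ACAT2 ASO. The 15 clock genes, listed because sterol synthesis varies over the day, had median changes of -0.0033 in transgenic liver and 0.0014 after ACAT2 ASO, with 0 called, and single genes went both ways. Clock genes deviated by a median of -0.27 on wild type 2. Without that array their median change in transgenic liver was -0.10, with 12 of 15 below 0. Time of day was not tested, and a median over the list cannot show whether groups matched in it. After ACAT2 ASO 2 of 15 were lower and 0 higher at an unadjusted p under 0.05, Per3 at -0.39 and Cry2 at -0.18 (limma adjusted p = 0.314 and 0.249). Groups did not overlap for Cry2 and for Npas2 at -0.14, a gene named after its values were seen, the ACAT2 ASO arrays lying lower.

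**Figure D4:**
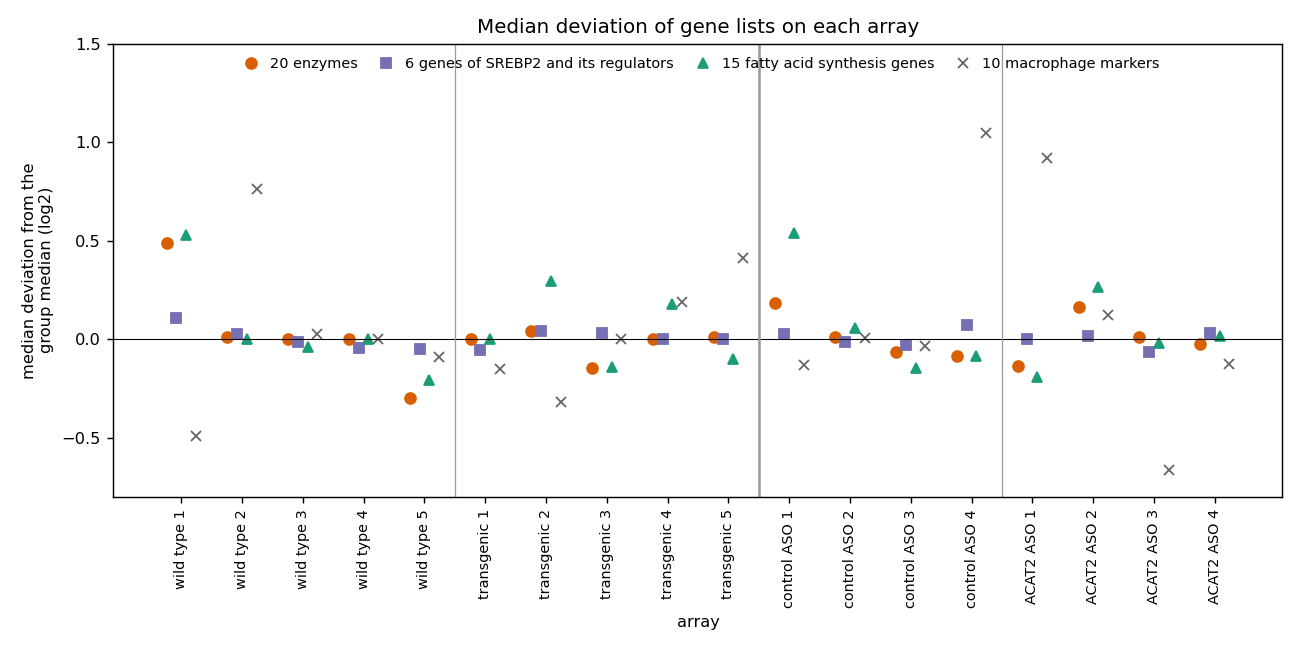
Median deviation of 4 gene lists from their group median (log2) on each of the 18 arrays, with groups separated by lines. Wild type 1 and control ASO 1 lie high for the 20 enzymes (0.49 and 0.18) and for the 15 fatty acid synthesis genes (0.53 and 0.54), and the macrophage markers are high on other arrays.

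Neighbouring pathways gave 0 called genes in either model, and 1, Zmpste24, for the difference between the models' effects. Of 15 fatty acid synthesis genes 9 lay above wild type in transgenic liver (median 0.05), where the sterol enzymes lay mostly below. The smallest p were those of Me1, malic enzyme, which supplies NADPH, at 0.43 ± 0.19 and Fads1, a fatty acid desaturase, at -0.26 ± 0.12 (SE, limma adjusted p = 0.409 and 0.462). The median was 0.20 without wild type 1, with 13 of 15 above 0, and -0.07 without wild type 5. After ACAT2 ASO 10 of 15 lay below control (median -0.04), led by Acss2, a cytosolic acetyl-CoA synthetase, at -0.71 ± 0.35, and Acacb, an acetyl-CoA carboxylase, at -0.63 ± 0.42 (SE, limma adjusted p = 0.387 and 0.560). The median was 0.0060 without ACAT2 ASO 1, with 7 of 15 below 0, and -0.20 without ACAT2 ASO 2, with 12 of 15 below 0.

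Other branches of isoprenoid use, 13 genes of prenylation, ubiquinone and dolichol synthesis, had medians of 0.04 in transgenic liver and -0.05 after ACAT2 ASO. Zmpste24, a protease of prenylated proteins, differed by 0.15 ± 0.04 and -0.12 ± 0.05 (SE, limma adjusted p = 0.158 and 0.240). Its groups did not overlap in either model, the transgenic arrays lying above wild type and the ACAT2 ASO arrays below control ASO. The difference of the effects was 0.27 ± 0.06 (SE, limma adjusted p = 0.0441), and when each of the 18 arrays was left out in turn it ran from 0.24 to 0.30 and was called in 3 of 18 fits (limma adjusted p from 0.0289 to 0.0939). Rabggtb, a Rab prenyltransferase subunit, differed by -0.20 in transgenic liver and Rce1, another prenyl protein protease, by 0.22 after ACAT2 ASO (limma adjusted p = 0.227 and 0.0987). The 13 genes of sterol sensing and degradation at the endoplasmic reticulum had medians of 0.02 and 0.00058. Ufd1, of the complex that extracts proteins for degradation, differed by 0.20 and -0.15, and Erlin2, which takes part in sterol-regulated degradation, by -0.21 after ACAT2 ASO (limma adjusted p = 0.206, 0.327 and 0.111). The 15 other sterol-binding genes had medians of 0.02 and -0.01. Osbpl6 and Stard5 differed by -0.13 and 0.15 in transgenic liver (limma adjusted p = 0.436 and 0.644). Osbpl9, an oxysterol-binding protein relative, and Gramd1b, which carries plasma membrane cholesterol to the endoplasmic reticulum, differed by 0.34 ± 0.08 and 0.46 ± 0.11 after ACAT2 ASO (SE, limma adjusted p = 0.0509 and 0.0759).

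Of the 33 members 17 had more than 1 probe set, with 26 other probe sets in all, 16 of them with a mean above 4.74. The sign was that of the probe set used for 19 of 26 in transgenic liver and 18 of 26 after ACAT2 ASO, and for 14 and 11 of the 16.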

How the data were processed

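RMA was named in the submitters' processing notes as the step by which the authors made the deposited log2 values, with no version given. Array medians ran from 4.61 to 4.65 in the transgenic and from 4.38 to 4.40 in the ASO model, so levels were compared only within a model. Of 45141 probe sets, 28898 had 1 gene symbol in the platform annotation. They gave 17097 genes, each read from its brightest probe set on average, with no filter. A single limma model (3.58.1, R 4.3.3) of the 4 groups on all 18 arrays gave changes, standard errors and two-sided p-values with Benjamini-Hochberg adjustment over all genes. It was tested on simulated data. Each gene has 1 spread shared by both models, so a standard error in one model also draws on arrays of the other. Sqle had SDs of 0.56 and 0.34 in wild-type and transgenic liver and 0.11 and 0.14 after control and ACAT2 ASO. Its shared spread therefore understates that of the transgenic model. The same holds for Tmem97 in the ASO model, with SDs of 0.31 after control and 0.21 after ACAT2 ASO. Stard4 had SDs of 0.09 and 0.12 in wild-type and transgenic liver, against 0.33 and 0.50 after control and ACAT2 ASO. Ggps1 had SDs of 0.08 in both ASO groups, against 0.30 and 0.15 in wild-type and transgenic liver. The shared spread overstates that of the transgenic model for Stard4 and of the ASO model for Ggps1. With each comparison fitted on its own arrays, 13 and 17 of all genes were called, in place of 39 and 102. The number of arrays limits the precision. Members and lists were chosen with earlier results of these data known. Values on every array are given for members whose groups did not overlap and, in each class, for the 2 with the smallest p in each comparison, and other lists name at most 2 genes per comparison. Alternatives covered a filter of the lowest 40% of genes, centring, quantile normalization, the choice of probe set, a fit per comparison, variance models, array weights, a replicate block, stricter thresholds and each array left out in turn. Figures were drawn with matplotlib 3.10.9.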

Additional observations from a re-analysis of the deposited data

Results flagged for a closer look

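Each member, and the mean of the enzymes, was tested in each group for an array that stands far from the others by Dixon's test, 136 groups in all, of which chance flags about 1 in 20, and 8 stood apart, all of them in members. Tmem97 read 8.55 on control ASO 1, against 7.89 to 7.99 on the other control ASO arrays. Ggps1 read 4.64 on wild type 5, against 5.18 to 5.38. Lss read 5.37 on transgenic 2, against 4.87 to 5.01. Nsdhl read 7.40 on ACAT2 ASO 2, against 6.94 to 6.98, and Mbtps2 read 6.06 on ACAT2 ASO 3, against 6.49 to 6.54. Lbr read 6.41 on control ASO 1, against 6.73 to 6.79. On wild type 1, Ebp read 10.64, against 10.36 to 10.41 on the other wild-type arrays, and Insig2 read 10.30, against 9.45 to 9.62. Outside the members, Zmpste24 differed between the models in the test of the difference itself, by 0.27 (limma adjusted p = 0.0441), at 0.15 in transgenic liver and -0.12 after ACAT2 ASO, and the call held in 3 of 18 fits that each left out 1 array.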

How the results depend on the processing

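The counts of members called stayed at 0 in each comparison, and for the difference of the effects, except as follows: 0 to 2 over the arrays left out in turn in transgenic liver (2 without wild type 5), 1 after ACAT2 ASO with array weights, and 0 to 1 for the difference (1 without wild type 5). In the fits named, 58, 465 and 200 of 17097 genes were called in these comparisons, in place of 39, 102 and 183. The median changes of members and enzymes kept their sign under all alternatives run, at -0.15 (array weights) to -0.06 (without wild type 1) and -0.25 (without wild type 5) to -0.08 (without wild type 1) in transgenic liver, and at -0.10 (without ACAT2 ASO 2) to -0.05 (without the 3 arrays that stand apart) and -0.11 (without ACAT2 ASO 2) to -0.04 (without ACAT2 ASO 1) after ACAT2 ASO. The labels do not say whether equal replicate numbers pair samples, and the main fit treats the samples as unpaired. Deviations of same-numbered arrays correlated at -0.48 to 0.17 in the transgenic and -0.48 to 0.47 in the ASO model, which cannot settle it. With a replicate block 0 members were called in each comparison, and 2, 18 and 12 of all genes in place of 39, 102 and 183. Sign changes, in members whose change was between -0.14 and 0.14 and that were called in neither setting, were these, and the cause was not tested. With probe sets averaged per gene, the sign turned for Srebf2 at -0.072, Mbtps1 at -0.016 and Npc2 at -0.010 in transgenic liver and for Acat1 at -0.035, Hsd17b7 at 0.023 and Srebf2 at -0.0065 in the ASO comparison. With array weights, the sign turned for Stard3 at -0.017 in transgenic liver and for Acat1 at -0.0090 and Hmgcs1 at 0.00086 in the ASO comparison. With quantile normalization within each model, the sign turned for Stard3 at -0.0071 in transgenic liver. Without the 3 arrays that stand apart, the sign turned for Aacs at -0.0048, Hmgcs1 at 0.024 and Lbr at 0.045 in transgenic liver and for Acat1 at -0.043, Hmgcs1 at 0.0028 and Sqle at 0.017 in the ASO comparison. In transgenic liver, leaving out each array in turn took the change across 0 for 13 members, with ranges of Acat1 -0.030 to 0.098, Aacs -0.0048 to 0.26, Hmgcs1 -0.12 to 0.024, Mvk -0.076 to 0.0034, Cyp51 -0.30 to 0.071, Tm7sf2 -0.22 to 0.085, Lbr -0.15 to 0.045, Hsd17b7 -0.23 to 0.028, Srebf2 -0.012 to 0.047, Insig2 -0.022 to 0.24, Stard3 -0.041 to 0.025, Npc2 -0.035 to 0.12 and Tmem97 -0.0012 to 0.095. After ACAT2 ASO, leaving out each array in turn took the change across 0 for 7 members, with ranges of Acat1 -0.019 to 0.10, Hmgcs1 -0.064 to 0.039, Sqle -0.064 to 0.047, Lbr -0.027 to 0.14, Hsd17b7 -0.16 to 0.048, Mbtps2 -0.098 to 0.063 and Osbp -0.020 to 0.095. Leaving out the 3 arrays was chosen after seeing the data, as were the members named for the difference of the effects. A fold minimum and an adjusted p under 0.01 could only lower counts that were 0.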
